A study of Homo sapiens with 7 samples.

Results

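The mitochondrial ribosomal protein genes were taken as every gene whose symbol is MRPL or MRPS followed by a number and, for some, a letter A, B or C. In the deposited expression values of 33117 genes, 78 entries matched, and 76 genes were left after MRPL30 and MRPS17, which each had 2 identifiers, were reduced to the identifier of higher mean. All 76 passed the filter on low values, a mean of at least 1 TPM (transcripts, scaled to a fixed library sum, a level corrected for transcript length) over the 7 libraries, which kept 16724 genes. RNA had been sequenced from 769-P, an established human cell line from a clear cell renal cell carcinoma, in 3 libraries of 769-P PA cells and 4 of the latent metastatic derivative Lat-M. The names of the Lat-M libraries split them into 2 of Lat-M1 and 2 of Lat-M2. All cells were grown in the same serum-containing medium, and no treatment or genetic change is given for any group. The sources used here do not say how the Lat-M cells were obtained, whether Lat-M1 and Lat-M2 are separate isolates or clones, or whether libraries of 1 group came from separate cultures, so p-values reflect only how these libraries vary, which can be technical variation. They also name 2 library kits without saying which library was made with which, so a difference in kit cannot be told apart from the groups.

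Mitochondria keep their own ribosome, which translates the few proteins encoded in mitochondrial DNA, all of them core subunits of the respiratory chain and ATP synthase. Its RNAs come from mitochondrial DNA, while its proteins are encoded in the nucleus, made in the cytosol and imported. The small subunit binds the mRNA and decodes it, and the large subunit forms the peptide bonds and releases the chain at a tunnel exit that faces the inner membrane. Of the 76 genes, 49 encode large subunit proteins and 26 small subunit proteins; MRPS18A and MRPS30 carry small subunit names but sit in the large subunit, and are counted there. The remaining gene, MRPS36, encodes an adaptor of the alpha-ketoglutarate dehydrogenase complex and was kept apart from both subunits.

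The libraries differed in the share of TPM going to 4 abundant structural RNAs (RN7SL1, RN7SL2, RN7SK and RMRP), which took 30.5% ± 1.17 of the PA total (SD, n = 3), 20.2% ± 2.30 of Lat-M1 (n = 2) and 25.3% ± 3.42 of Lat-M2 (n = 2). TPM sum to 1000000, so a change in this share moves every other gene, though its part in the shift given next was not tested. In the deposited values all tested genes had a median shift of 0.16 (log2) in Lat-M1 against PA and 0.14 in Lat-M2 against PA. The levels below are therefore scaled TPM, each library divided by its median ratio to the mean profile (factors 0.927 to 1.10), and calls on the deposited TPM are given where they differ. Between 16136 and 16872 genes reached 1 TPM in each library. The marker levels in the rest of this paragraph are deposited TPM. The kidney factor PAX8 (65.6 to 87.9) and the epithelial keratins KRT8 (88.8 to 206) and KRT18 (259 to 441) were present in every library. CA9, LRP2 and KRT19 were at most 0.156. Of the markers of other cell types, COL1A2, DCN, LUM, PDGFRA, CDH5, VWF, KDR and PTPRC stayed at or below 0.0364, while COL1A1 ranged from 1.04 to 20.6 and CD68 from 14.1 to 48.2; PECAM1 and CD3E were not analysed here.

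The mitochondrial ribosomal protein transcripts were of middle to high abundance. Their mean level over the 7 libraries had a median of 52.6 scaled TPM, against 11.9 for all tested genes, and ranged 50.2-fold from MRPL46 at 8.13 to MRPL15 at 408. MRPL15, a large subunit protein with a bacterial counterpart, stood well above MRPL51 (237), MRPS35 (218), MRPL14 (183) and MRPS10 (179), and these 5 genes made up 23.4% of the summed level. MRPL52 (18.9), MRPL48 (16.8), MRPL4 (16.0), MRPS11 (15.6) and MRPL46 were lowest. In this order MRPL15 and MRPL51 did not overlap in any library, whereas MRPL4 (13.2 to 18.5) and MRPS11 (12.5 to 21.0) overlapped. The 49 large and 26 small subunit transcripts had similar medians of 51.5 and 54.0.

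**Figure D1:**
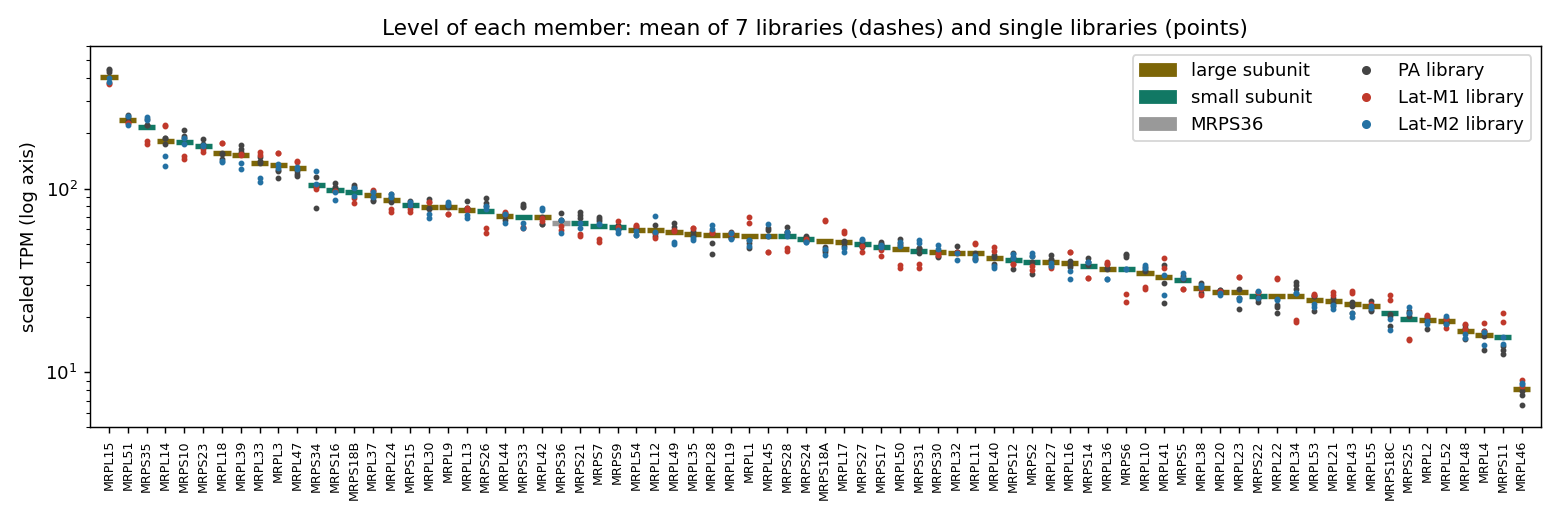
Scaled TPM (log axis) of the 76 genes in order of their mean over 7 libraries; dashes are means, coloured by subunit, and points are single libraries, coloured by group. MRPL15 lies highest at a mean of 408 and MRPL46 lowest at 8.13.

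In Lat-M1 against PA the 2 subunits moved apart. Of 26 small subunit transcripts, 16 fell (61.5%) and 2 rose (7.69%), with a median log2 fold change of -0.18. Of 49 large subunit transcripts, 14 rose (28.6%) and 8 fell (16.3%), with a median of 0.08. The large subunit shares were nearer those of all tested genes (24% higher and 23% lower) than the small subunit shares were. Over all 76 members, 16 were higher and 24 lower (21.1% and 31.6%), against 24% and 23% of all 16724 tested genes, and the members' median was -0.03 against 0.004. The test was limma on log2(scaled TPM + 1) at an adjusted p of 0.05, and fold changes on this scale understate those of low genes. On deposited TPM the counts became 4 higher and 7 lower for the small subunit and 24 higher and 2 lower for the large subunit, or 28 and 9 of all members against 33.2% and 11.6% of all genes. The order of the subunits thus stayed while the zero line moved, and 16 members were called higher and 9 lower both ways. No member changed 2-fold, which 6.86% of all tested genes did. The number of members higher was 8 without the first Lat-M1 library and 9 without the second, and 7 large subunit transcripts rose when either was left out.

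**Figure D2:**
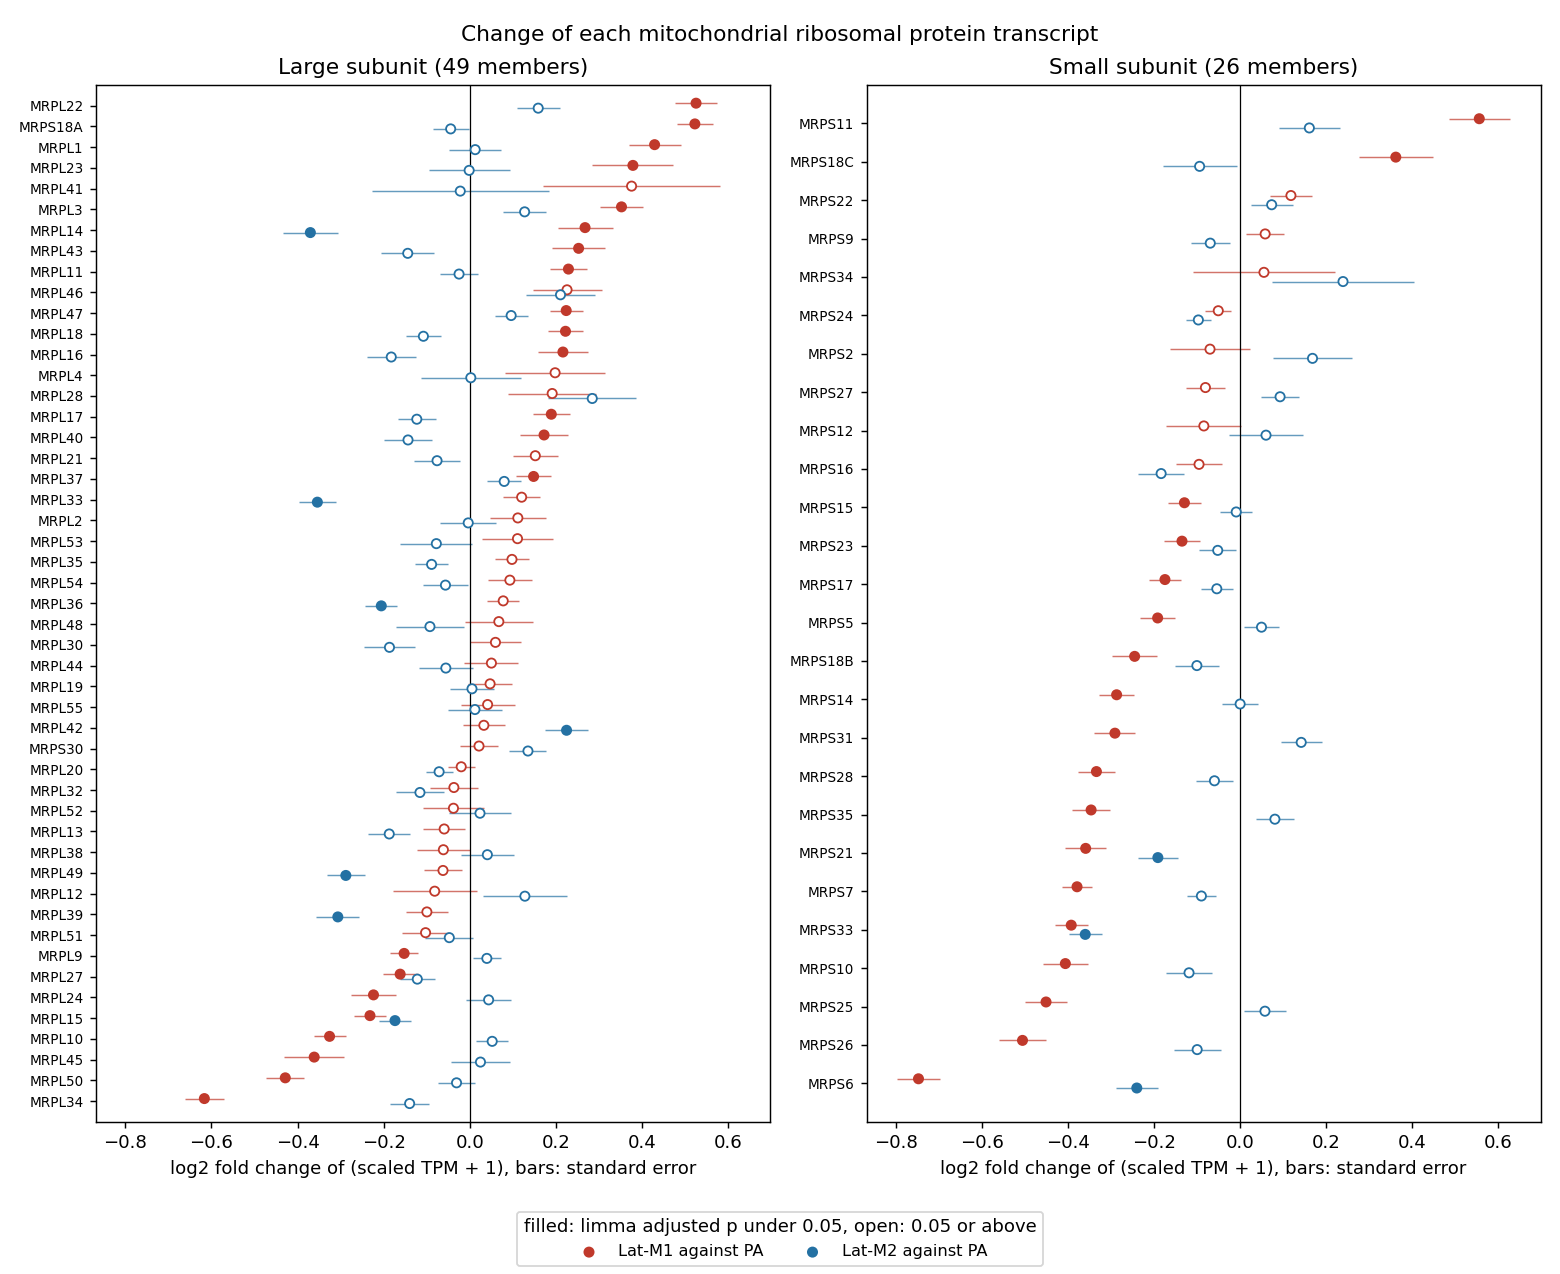
Log2 fold change (x axis) of 49 large and 26 small subunit transcripts against PA, with standard errors; red is Lat-M1, blue Lat-M2, and filled points passed the test. In Lat-M1, 16 small subunit transcripts lie to the left as filled points and 14 large subunit transcripts to the right.

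The summed levels showed the same split and do not depend on the scaling when taken as a ratio within a library. The small subunit sum was 1918, 1903 and 1862 scaled TPM in the 3 PA libraries, 1622 and 1622 for Lat-M1, and 1851 and 1841 for Lat-M2. The large subunit sum was 3394 ± 53.9 (SD, n = 3) for PA, 3491 ± 0.527 (n = 2) for Lat-M1 and 3212 ± 15.3 (n = 2) for Lat-M2. Small over large was 0.558 ± 0.00134 for PA, 0.464 ± 0.000147 for Lat-M1 and 0.575 ± 0.000521 for Lat-M2, so the Lat-M1 libraries lay below every other library. For the cytosolic ribosome, the same ratio was 0.927 ± 0.00192 for PA, 0.895 ± 0.00893 for Lat-M1 and 0.889 ± 0.000493 for Lat-M2. No test was made on these sums.

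**Figure D3:**
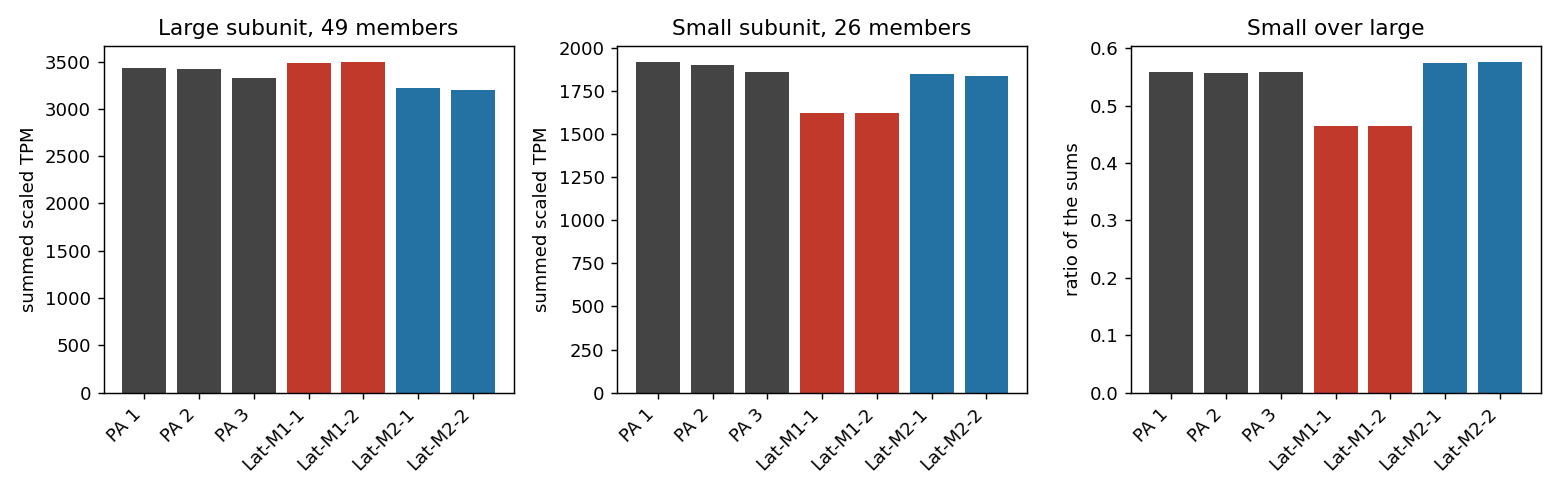
Summed scaled TPM of the large and small subunit transcripts and the ratio of small to large, per library (bars; both axes start at 0). The small subunit sum and the ratio are lowest in the 2 Lat-M1 libraries, at 1622 and 0.464.

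Among the small subunit transcripts that fell in Lat-M1, MRPS6 changed most. MRPS6, whose bacterial counterpart binds the platform of the small subunit, was at 43.8, 44.0 and 42.5 scaled TPM in PA, 24.1 and 26.8 in Lat-M1, and 36.5 and 36.6 in Lat-M2. The 3 groups did not overlap, and the log2 fold change in Lat-M1 was -0.75 ± 0.05 (SE; adjusted p = 6.32e-05). SLC5A3, a sugar alcohol transporter gene that shares 273 exonic bases with MRPS6 on the same strand in GENCODE v29, fell by 0.90 in Lat-M1 (adjusted p = 4.81e-05), and reads in the shared part cannot be assigned with certainty.

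MRPS26, a protein with no bacterial counterpart, read 89.4, 80.8 and 83.5 in PA and 57.2 and 61.3 in Lat-M1 (log2 fold change -0.51 ± 0.05, adjusted p = 0.000517). Both Lat-M2 libraries, at 77.3 and 80.2, lay below the PA range but did not pass the test against PA (-0.10). MRPS25, also specific to mitochondria, was at 20.9, 20.1 and 21.6 in PA, 14.9 and 15.1 in Lat-M1 and 20.9 and 22.7 in Lat-M2. Its fall in Lat-M1 was -0.45 ± 0.05 (adjusted p = 0.000588). MRPS10, one of the 5 most abundant members, fell from 208, 195 and 189 to 151 and 146 in Lat-M1 (-0.41 ± 0.05, adjusted p = 0.00121), with Lat-M2 between them at 175 and 188. These 4 falls were called on deposited TPM as well, with adjusted p from 0.00101 for MRPS6 to 0.0121 for MRPS25. The falls of MRPS31 (-0.29) and MRPS35 (-0.35) in Lat-M1 passed on scaled TPM alone, with adjusted p of 0.105 and 0.0763 on deposited TPM.

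The small subunit proteins listed as mitochondria-specific gave 0 transcripts higher and 7 of 10 lower (70%) in Lat-M1. The 16 listed with bacterial counterparts gave 2 higher (12.5%) and 9 lower (56.25%), against 24% and 23% of all tested genes. On deposited TPM these were 1 and 3 (10% and 30%), and 3 and 4 (18.75% and 25%), against 33.2% and 11.6%. MRPS18B was listed among the 10 and MRPS18C among the 16, although both descend from bacterial S18, so the split depends on the listing. The 2 small subunit transcripts that rose were MRPS11 and MRPS18C. MRPS11, of the small subunit platform, was at 13.9, 13.1 and 12.5 in PA, 18.7 and 21.0 in Lat-M1 and 14.2 and 15.5 in Lat-M2. Both Lat-M1 libraries lay above all others (log2 fold change 0.56 ± 0.07, adjusted p = 0.0011).

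The MRPS18 paralogs descend from the bacterial protein S18, of which MRPS18B and MRPS18C sit in the small subunit and MRPS18A in the large one. MRPS18A rose from 46.3, 47.9 and 45.4 in PA to 66.9 and 67.7 in Lat-M1 (0.52 ± 0.04, adjusted p = 0.000153) and was at 43.5 and 46.7 in Lat-M2. MRPS18C rose from 20.9, 17.8 and 20.2 to 26.2 and 24.7 in Lat-M1 (0.36 ± 0.09, adjusted p = 0.0144), a call lost without the first Lat-M1 library (adjusted p = 0.0887). Over 40.2% of its exonic bases MRPS18C overlaps ABRAXAS1 on the other strand, which fell by 0.39. MRPS18B fell from 104, 101 and 103 to 83.7 and 89.0 (-0.25 ± 0.05, adjusted p = 0.00905), but not on deposited TPM (adjusted p = 0.432) or without the first Lat-M1 library (0.078). The paralogs therefore did not move together.

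In the large subunit, MRPL22, MRPS18A, MRPL1 and MRPL23 had the largest rises. MRPL22, at the tunnel exit, was at 23.2, 22.6 and 20.9 in PA, 32.4 and 32.5 in Lat-M1 and 24.7 and 25.1 in Lat-M2. Its log2 fold change in Lat-M1 was 0.53 ± 0.05 (adjusted p = 0.000297), and no Lat-M1 value came near the other groups. MRPL1, of the L1 stalk where spent tRNA leaves, rose from 52.5, 47.5 and 50.3 to 70.5 and 65.1 (0.43 ± 0.06, adjusted p = 0.00166). MRPL23, also at the tunnel exit, rose from 22.1, 28.3 and 25.3 to 32.9 and 33.0 (0.38 ± 0.09, adjusted p = 0.0176), a call lost when either Lat-M1 library was left out. Of 6 tunnel exit genes, MRPL17, MRPL22, MRPL23 and MRPL47 rose (66.7%) and MRPL24 and MRPL45 fell (33.3%), the falls on scaled TPM alone. Of all tested genes, 24% were higher and 23% lower. Of 5 genes of the stalk that recruits translation factors, MRPL11 rose (20%) and MRPL10 fell (20%), shares near those of all tested genes. The MRPL10 fall was again on scaled TPM alone. Both the tunnel exit and the stalk group were added after values were seen. MRPL12 did not pass the test, at 58.7 ± 4.08 (SD, n = 3) for PA, 55.4 ± 2.43 (n = 2) for Lat-M1 and 64.5 ± 9.27 (n = 2) for Lat-M2. MRPL12 shares 68.2% of its exonic bases with another annotated gene on the same strand.

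The largest falls in the large subunit were MRPL34 and MRPL50. MRPL34, a short protein with a bacterial counterpart, was at 28.3, 30.9 and 30.0 in PA, 19.2 and 18.9 in Lat-M1 and 26.9 and 26.9 in Lat-M2 (Lat-M1 against PA -0.62 ± 0.04, adjusted p = 9.56e-05). MRPL50, specific to mitochondria, was at 53.2, 49.6 and 50.4 in PA, 38.2 and 37.1 in Lat-M1 and 48.6 and 51.3 in Lat-M2 (-0.43 ± 0.04, adjusted p = 0.000429). Both were lower in the Lat-M1 libraries than in every other library, and both were called on deposited TPM too. MRPL15 fell from 442, 449 and 434 to 379 and 373 (-0.23 ± 0.04, adjusted p = 0.00258), and this call did not hold on deposited TPM (adjusted p = 0.559).

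**Figure D4:**
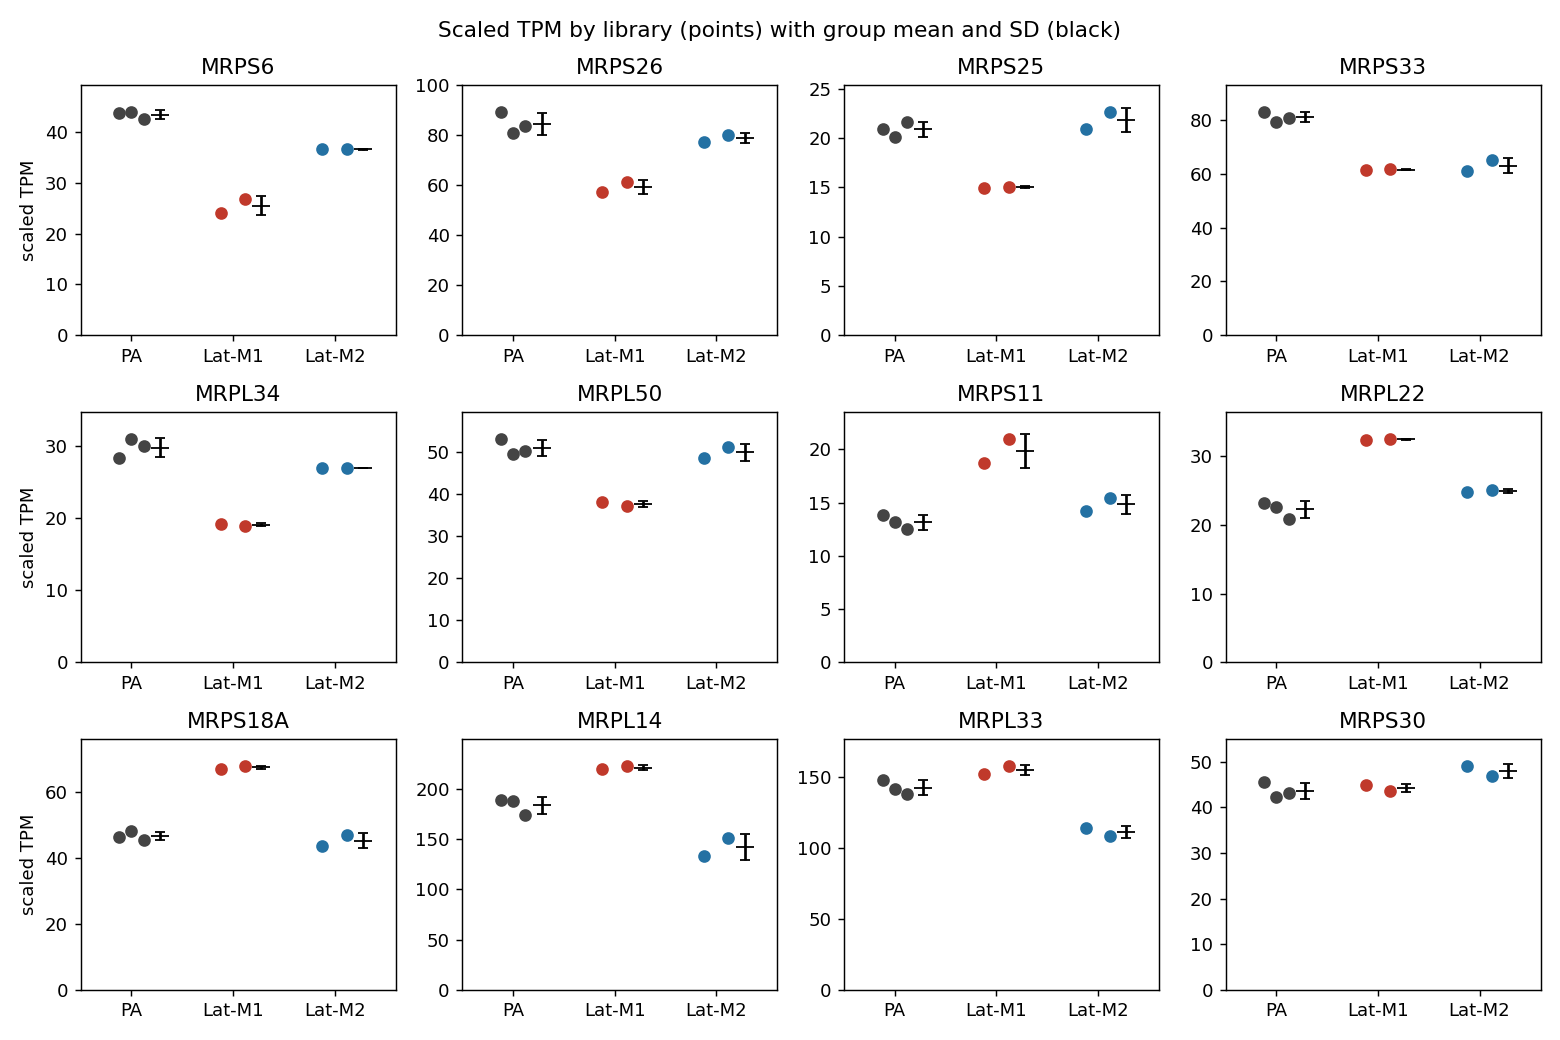
Scaled TPM (y axis from 0) of 12 members by group; points are libraries and black marks the group mean and SD. MRPS6, MRPS26, MRPS25, MRPL34 and MRPL50 are lowest in Lat-M1, MRPS11, MRPL22 and MRPS18A highest there, MRPS33 is low in both Lat-M groups, and MRPL14 is high in Lat-M1 and low in Lat-M2.

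In Lat-M2 against PA few members changed. MRPL42 rose by 0.23 (adjusted p = 0.0305, a call lost in 6 of the 7 fits that left out 1 library) and 9 fell, 1.32% and 11.8% of members against 7.7% and 8.2% of all tested genes. The number lower was 4 without the first Lat-M2 library and 5 without the second. On deposited TPM, 7 were higher and 2 lower, against 12.7% and 2.24%, and 3 members were called the same way on both. MRPS33, a small protein specific to the mitochondrial small subunit, was at 83.0, 79.3 and 80.7 in PA, 61.3 and 61.6 in Lat-M1 and 60.9 and 64.9 in Lat-M2. All 4 Lat-M libraries lay below all PA libraries, with log2 fold changes of -0.39 ± 0.04 in Lat-M1 (adjusted p = 0.000357) and -0.36 ± 0.04 in Lat-M2 (adjusted p = 0.00315).

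MRPL33 fell in Lat-M2 from 148, 142 and 138 to 114 and 109 (-0.35 ± 0.04, adjusted p = 0.00509) and read 152 and 158 in Lat-M1. BABAM2, which shares 21.1% of the exonic bases of MRPL33 on the same strand, moved by -0.34 in Lat-M2 and 0.01 in Lat-M1; its part in the MRPL33 values was not tested. MRPL39 (-0.31) and MRPL49 (-0.29) also fell in Lat-M2, and neither call, nor that of MRPL33, held on deposited TPM, with adjusted p from 0.105 to 0.129. The MRPL39 and MRPL49 calls were also lost without the first Lat-M2 library. MRPS6 fell by 0.24 in Lat-M2 (adjusted p = 0.0251), a call lost without any 1 of the PA or Lat-M2 libraries. MRPS33, MRPS6, MRPS21 and MRPL15 were lower in both Lat-M1 and Lat-M2 than in PA. Both comparisons use the same PA libraries, and the share of all tested genes lower in both is not given here. On deposited TPM the Lat-M2 calls of MRPS6, MRPS21 and MRPL15 were lost (adjusted p = 0.439, 0.635 and 0.83), which leaves MRPS33 lower in both. The MRPL15 call in Lat-M2 (-0.17) was also lost in 6 of the 7 fits that left out 1 library.

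Lat-M2 was also compared with Lat-M1 directly. Of 76 members, 19 were higher and 22 lower in Lat-M2 (25% and 28.9%, against 21.9% and 22.3% of all genes). The small subunit had 12 higher and 2 lower (46.2% and 7.69%), and the large had 7 higher and 20 lower (14.3% and 40.8%). On deposited TPM these were 14 and 19 of 76, against 16% and 20.1%. MRPL14, next to a bridge between the subunits, was the member with opposite calls against PA. It was at 189, 188 and 174 in PA, 220 and 223 in Lat-M1 and 133 and 151 in Lat-M2. The groups did not overlap, and Lat-M2 against Lat-M1 gave -0.64 ± 0.07 (adjusted p = 0.000658). Against PA, its rise (0.27) was lost when either Lat-M1 library was left out and its fall (-0.37) without the first Lat-M2 library. MRPS18A (-0.57), MRPL33 (-0.47), MRPS18C (-0.46), MRPL1 (-0.42) and MRPL16 (-0.40) were the next lowest in Lat-M2, and MRPS25 (0.51), MRPS6 (0.51), MRPL34 (0.48), MRPS31 (0.43), MRPS35 (0.43) and MRPS26 (0.41) were highest. The number lower in Lat-M2 was 13 without the first Lat-M1 library.

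With Lat-M1 and Lat-M2 taken as 1 group of 4 libraries against 3 of PA, MRPS33 alone passed (-0.38 ± 0.06 in the fit of 2 groups, adjusted p = 0.0243), so 0 members were higher and 1 lower, against 0.682% and 0.538% of all genes. At an unadjusted p under 0.05 there were 17 members. The share of all tested genes at that unadjusted threshold is not given here, on scaled or deposited TPM. Counts at that threshold therefore do not show whether the members differ from other genes. In this fit the Lat-M1 to Lat-M2 difference counts as spread. The mean of the Lat-M1 and Lat-M2 effects in the fit of 3 groups gave 8 higher and 19 lower. The share of all genes in that contrast is not given here. The shares above belong to the fit of 2 groups and cannot be set beside these counts. On deposited TPM, 0 passed in either direction, against 2.51% and 0.389% of all genes, with MRPS33 at an adjusted p of 0.0896 and 16 members at an unadjusted p under 0.05. The MRPS33 call was also lost without any 1 library other than the second Lat-M2 library.

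**Figure D5:**
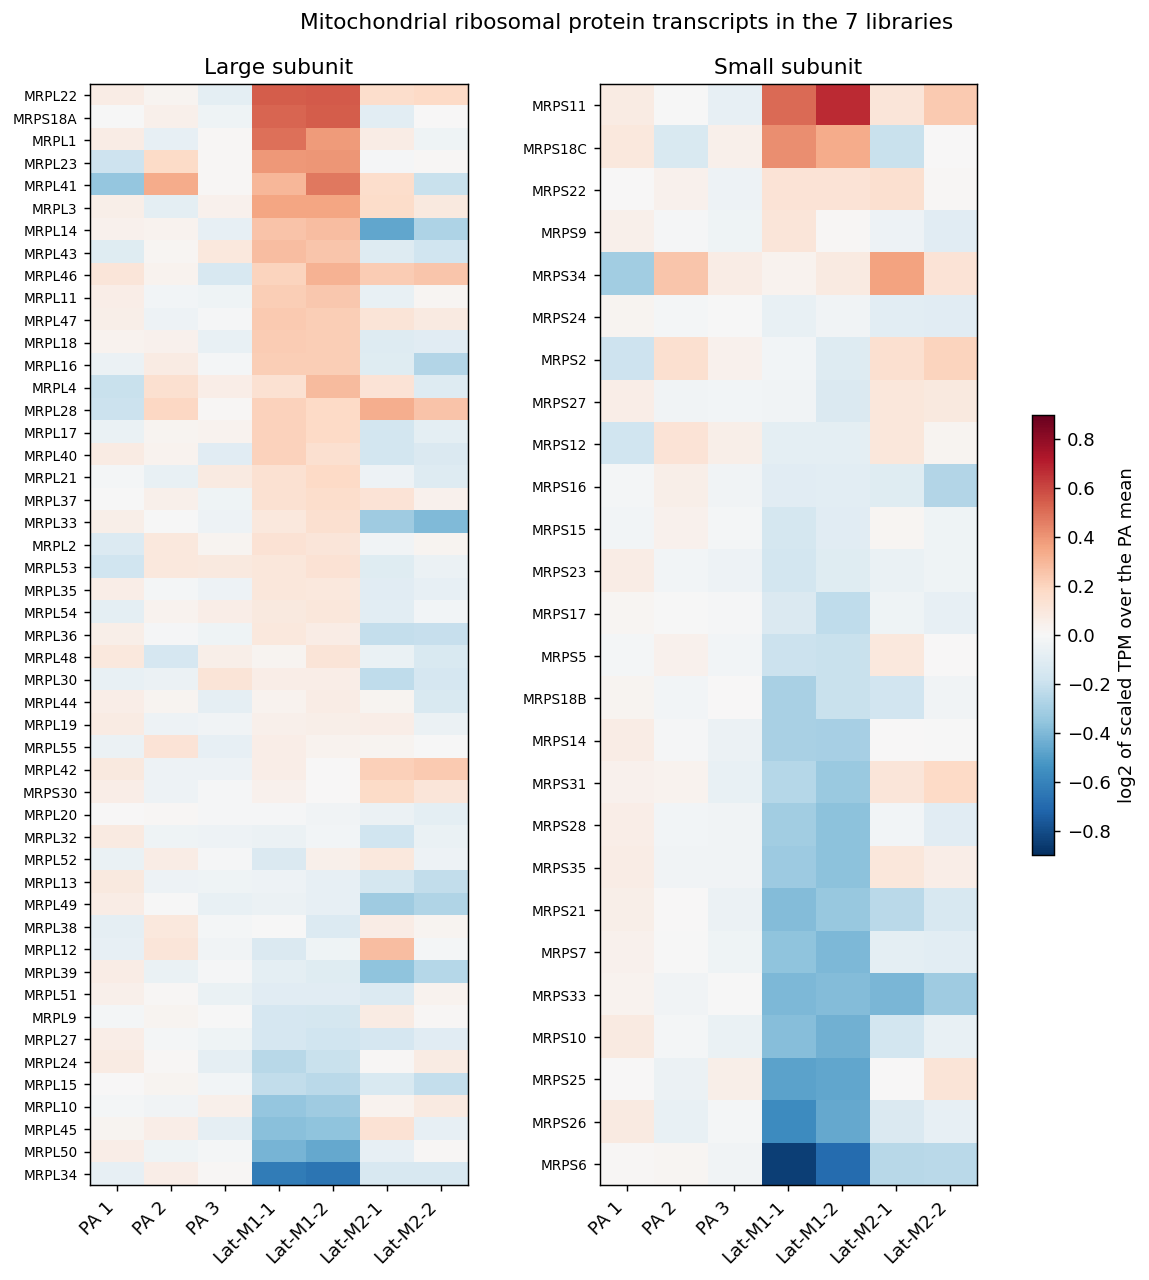
Log2 of scaled TPM over the PA mean for 49 large and 26 small subunit transcripts (rows) in the 7 libraries (columns), ordered by the Lat-M1 mean. The small subunit panel is mostly blue in the 2 Lat-M1 columns, and MRPL14 is red in Lat-M1 and blue in Lat-M2.

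In 27 members no pair comparison passed the test, among them MRPL12, MRPL41, MRPL46, MRPL48, MRPL51, MRPL52, MRPS30 and MRPS36. The share of all tested genes without a call is not given here, so this count does not show whether the members were steadier than other genes. MRPS36 was at 74.0, 67.3 and 67.9 in PA, 59.5 and 62.6 in Lat-M1 and 57.3 and 67.7 in Lat-M2 (-0.19 and -0.16). MRPL41, specific to mitochondria, ranged from 23.7 to 38.2 within PA alone, which is wider than its difference between groups. PA 1 was the low library there. Across 74 members with a GENCODE v29 transcript, the difference of PA 1 from the other PA libraries went with transcript GC content (Spearman rho -0.63, and -0.42 over all tested genes with a transcript), while GC and the Lat-M1 fold change gave rho 0.16. The points share libraries, and these values are descriptions. Leaving PA 1 out gave 16 lower in the small subunit and 15 higher in the large subunit in Lat-M1.

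Promoters were read for the members because the 2 subunits moved apart in Lat-M1. Of 76 genes, 67 had an entry in the RefSeq table (GRCh38.p14). The 4 shown are of 2 genes lower and 2 higher in Lat-M1, chosen after their values were seen among promoters free of annotated exons: MRPS31 at chr13:40771201-40771440 (minus strand), MRPL50 at chr9:101398629-101398868 (minus), MRPS18A at chr6:43687802-43688041 (minus) and MRPL22 at chr5:154940823-154941062 (plus). Each is 240 bases, ending 11 bases before the start, with motif matches in capitals.
MRPS31: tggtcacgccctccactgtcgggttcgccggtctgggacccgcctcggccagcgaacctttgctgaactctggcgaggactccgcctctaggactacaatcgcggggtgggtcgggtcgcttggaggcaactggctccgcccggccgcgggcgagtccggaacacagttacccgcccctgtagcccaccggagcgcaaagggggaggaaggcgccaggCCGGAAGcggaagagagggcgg
MRPL50: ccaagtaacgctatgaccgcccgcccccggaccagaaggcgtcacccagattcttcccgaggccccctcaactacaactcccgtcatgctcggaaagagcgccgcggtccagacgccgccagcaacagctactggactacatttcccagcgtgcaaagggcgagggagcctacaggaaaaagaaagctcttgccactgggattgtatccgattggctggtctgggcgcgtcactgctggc
MRPS18A: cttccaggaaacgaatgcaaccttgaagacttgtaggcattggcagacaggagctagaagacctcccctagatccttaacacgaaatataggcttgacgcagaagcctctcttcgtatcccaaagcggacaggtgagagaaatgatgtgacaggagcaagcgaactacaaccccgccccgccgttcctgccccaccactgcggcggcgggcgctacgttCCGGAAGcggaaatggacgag
MRPL22: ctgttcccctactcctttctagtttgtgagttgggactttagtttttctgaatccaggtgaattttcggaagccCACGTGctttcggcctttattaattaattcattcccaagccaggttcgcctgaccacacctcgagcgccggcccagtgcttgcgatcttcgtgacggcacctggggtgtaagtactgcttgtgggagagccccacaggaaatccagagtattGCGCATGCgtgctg

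The letters CCGGAAG, bound by ETS factors such as GABPA, occurred within 250 bases before the start on either strand in 22 of 67 members (32.8%), against 8.82% of 27305 promoters. They are in the promoters printed above for MRPS31, which fell, and MRPS18A, which rose. They occurred in 33.3% of large and 32% of small subunit promoters. By direction in Lat-M1 they were in 6 of 21 members lower (28.6%) and 6 of 15 members higher (40%). The NRF1 letters GCGCATGC were in 8.96% against 2.81%, the YY1 letters AAGATGGCG in 4.48% against 0.641%, and the E-box CACGTG, read by MYC, in 8.96% against 6.49%. By direction in Lat-M1, the NRF1 letters and the E-box were each in 1 of 21 members lower (4.76%) and 3 of 15 higher (20%). The YY1 letters were in 0 of either set, and these counts are too small to compare. The ETS and NRF1 letters are the second forms tried. The first, CCGGAAGT for ETS and the NRF1 letters followed by GC, were searched and counted before being shortened, and gave 13.4% of members against 3.64% and 1.49% against 1.13%, so the size of these shares depends on the letters chosen. A match is a description of the sequence only.

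Of 9 regulators with a known part in mitochondrial biogenesis, 4 rose and 4 fell in Lat-M1 (44.4% each, against 24% and 23% of all tested genes), or 4 and 2 on deposited TPM (44.4% and 22.2%, against 33.2% and 11.6%). PPARGC1A, the coactivator PGC-1alpha, fell from 21.3 ± 0.771 (SD, n = 3) for PA to 1.21 ± 0.113 (n = 2) for Lat-M1, and read 21.2 ± 0.649 (n = 2) for Lat-M2. On the log2 scale the change was -3.34 for Lat-M1, with non-overlapping groups. Its relatives rose in Lat-M1, PPARGC1B by 0.51 and PPRC1 by 0.45. Of the transcription factors, ESRRA (-0.50), GABPA (-0.33) and NRF1 (-0.24) fell and GABPB1 (0.41) and MYC (0.32) rose, while YY1 (-0.13) did not pass. In Lat-M2 PPARGC1B (0.39) and MYC (0.17) rose (22.2%, against 7.7% of all tested genes) and the other 7 did not pass.

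The shares of all tested genes to set beside the following Lat-M1 counts are again 24% higher and 23% lower, or 33.2% and 11.6% on deposited TPM. Of 17 mitochondrial tRNA synthetases, 3 were higher (17.6%) and 10 lower (58.8%) in Lat-M1 (median -0.22), or 5 (29.4%) and 4 (23.5%) on deposited TPM. IARS2 fell by 0.52 and PARS2 by 0.60, and FARS2 rose by 0.48. Of 24 assembly factors, 4 rose (16.7%) and 5 fell (20.8%), or 6 (25%) and 1 (4.17%) on deposited TPM, shares below those of all genes. NGRN, which binds the large subunit rRNA, rose from 62.9 ± 1.33 to 121 ± 4.15 scaled TPM (0.94), and MRM1, an rRNA methyltransferase, fell by 0.49. Of 14 translation factors, 3 rose (21.4%), with GFM2 at 0.51, and 4 fell (28.6%), with MTRF1 at -0.42 and the membrane insertase OXA1L at -0.47; on deposited TPM 4 rose (28.6%) and 2 fell (14.3%). Of 14 genes of transcription and RNA processing, 4 fell (28.6%) and 0 rose, with TEFM at -0.54, but 1 fell (7.14%) and 3 rose (21.4%) on deposited TPM. Of 7 ribosomal proteins under other names, PTCD3 (-0.17) and MRP63 (-0.21) fell in Lat-M1 (28.6%), on scaled TPM alone. AURKAIP1 (0.66) and ICT1 (0.17) rose in Lat-M2 (28.6%, against 7.7% of all tested genes). In Lat-M2 against PA, 1 synthetase, 1 assembly factor and 1 translation factor were higher. These shares (5.88%, 4.17% and 7.14%) lay below the 7.7% of all tested genes. On deposited TPM the counts were 3, 2 and 4 (17.6%, 8.33% and 28.6%, against 12.7% of all genes).

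Of the 15 mRNAs and rRNAs of mitochondrial DNA, 0 passed limma's test in Lat-M1 or Lat-M2 against PA, and 1 in each comparison had an unadjusted p under 0.05. Their summed mRNA level was 24355 ± 2377 scaled TPM (SD, n = 3) for PA, 22118 ± 1183 (n = 2) for Lat-M1 and 21443 ± 5015 (n = 2) for Lat-M2. The 2 rRNAs together were at 1933 ± 169, 1779 ± 24.0 and 2134 ± 22.4. The nuclear genes of the respiratory chain were lower in 39 (51.3%, against 23% of all tested genes) and higher in 5 of 76 (6.58%, against 24%) in Lat-M1 (median -0.16). On deposited TPM these were 21 and 14 (27.6% and 18.4%, against 11.6% and 33.2%). Cytosolic ribosomal proteins were lower in 10 (12.3%) and higher in 22 (27.2%) of 81 (median 0.01), or 1 and 37 (1.23% and 45.7%) on deposited TPM. In bulk RNA, fewer cells expressing a gene and less RNA per cell cannot be told apart.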

How the data were processed

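The deposited values are TPM per gene, 1 file per library, made by the authors with TopHat2 2.2.4 on hg19, per the submitters' processing notes; the quantifier and gene annotation are not given in the sources used here. TPM keep no read depth, so the depth per library is unknown and no counting error is given. Each library was divided by the median of its ratios to the mean log2 profile over 14304 genes above 1 TPM in every library. Scaled TPM was made the main value, in place of deposited TPM, because the structural RNA share differs between groups. limma 3.58.1 (R 4.3.3; trend and robust options) was run on log2(scaled TPM + 1) for the 16724 genes whose mean reached 1 TPM, with Benjamini-Hochberg adjustment over all of them at 0.05. Pair comparisons came from 1 fit of 3 groups and Lat-M against PA from a fit of 2 groups. The fit was tested on simulated data.

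The members, gene lists and tests were chosen with earlier results of these data known. The following were set or changed after values were seen in this work: MRPS28 was moved to the small subunit proteins with a bacterial counterpart, the stalk and tunnel exit groups were added, the ETS and NRF1 motif letters were shortened after a first count, the printed promoters were chosen, and exon overlaps were looked up. In each pair comparison, the 6 highest and 6 lowest log2 fold changes among calls with non-overlapping groups were named, with every call of Lat-M against PA, the 5 highest and 5 lowest members, MRPS18A, MRPS18B, MRPS18C, MRPL12, MRPS30, MRPL41 and MRPS36, and from the other lists up to 4 genes of smallest p and all regulators (1 gene that the rule names and 1 marker are not reported here); further members are named where a count of 5 or fewer, or a split, is spelled out. Alternatives were deposited TPM, leaving out structural RNAs, a pseudocount of 0.1, no filter or a minimum of 5 TPM, leaving out each library, and the library number as a block. The numbers do not pair the libraries. Promoters are from RefSeq, GRCh38.p14, and exon overlaps of at least 50 bases from GENCODE v29; no position in the hg19 files was used.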

Additional observations from a re-analysis of the deposited data

Results flagged for a closer look

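MRPL51, MRPS16 and MRPS22 each had 1 library apart among the 4 Lat-M libraries, in each case the second Lat-M2 library. MRPL51 read 227 and 227 scaled TPM in Lat-M1 and 223 and 249 in Lat-M2. The gap to the nearest of the others was 0.858 of the whole range, above the critical value of Dixon's test for 4 values. MRPS16 read 96.8 and 97.3 in Lat-M1 and 96.4 and 86.3 in Lat-M2 (0.922). MRPS22 read 27.3 and 27.3 in Lat-M1 and 27.6 and 25.2 in Lat-M2 (0.847). All 76 members were examined, and chance alone gives about 1 in 20.

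MRPL14 rose in Lat-M1 and fell in Lat-M2 against PA, and the difference between Lat-M2 and Lat-M1, tested directly with limma, was -0.638 on the log2 scale (adjusted p = 0.000658).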

How the results depend on the processing

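On deposited TPM the members higher and lower in Lat-M1 against PA were 28 and 9 (16 and 24 on scaled TPM), of which 4 and 7 in the small and 24 and 2 in the large subunit; Lat-M2 against PA gave 7 and 2, and Lat-M against PA 0 lower. The members' median log2 fold change became 0.15 in Lat-M1, 0.10 in Lat-M2 and 0.15 in Lat-M, with the small subunit at -0.01 and the large at 0.25 in Lat-M1, which follows from the shift of all genes. Leaving out the structural RNAs gave 3 higher in Lat-M2 against PA and a median of 0.03 in Lat-M2 against Lat-M1, and testing every gene gave 0 higher in Lat-M2. The contrast in the fit of 3 groups gave 8 higher and 19 lower for Lat-M against PA, with no share of all genes given for it. With 1 library left out in turn, Lat-M1 against PA gave 8 to 17 members higher and 17 to 24 lower (small subunit 1 to 2 higher and 12 to 16 lower, large subunit 7 to 15 higher and 5 to 8 lower), Lat-M2 against PA 0 to 1 higher and 4 to 7 lower, Lat-M2 against Lat-M1 15 to 21 higher and 13 to 25 lower, and Lat-M against PA 0 to 1 lower; a group left with 1 library was assumed to vary like the others. The causes were not tested. No called member named here changed sign under these alternatives, but on deposited TPM the members' medians against PA and the balance of higher to lower calls turned, as given above. Libraries of the same number did not vary together about their group means (correlations -0.0805 to 0.0331), a weak check with 2 libraries in each Lat-M group. With the number as a replicate block, Lat-M1 against PA gave 1 small subunit transcript higher, and Lat-M2 against PA 0 higher and 3 lower. Lat-M against PA then gave 0, with 3 members at an unadjusted p under 0.05 and no share of all genes given for that threshold. With 2 or 3 libraries a group and no read depth, small differences cannot be resolved.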

Other observations

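Of 20 members with a gene starting head to head within 1000 bases (GENCODE v29), 18 had a partner at or above 1 scaled TPM, and member and partner fold changes had Pearson r 0.28 in Lat-M1 and 0.53 in Lat-M2, a description in which the pair of MRPS11 and MRPL46 counts from both sides and all points share the same libraries. MRPL18 (0.22) and its partner TCP1 (0.21), a subunit of the cytosolic chaperonin, rose together in Lat-M1. MRPL47 rose by 0.22 while its partner NDUFB5, a subunit of respiratory complex I, fell by 0.31 (adjusted p = 0.00366). MRPL50 (-0.43) and its partner ZNF189 (-0.22) both fell.

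Of 74 members looked up, 30 share at least 50 exonic bases with another tested gene, and reads in those bases cannot be assigned to 1 gene with certainty. The readthrough entry URGCP-MRPS24 was listed at 173 to 191 scaled TPM, above MRPS24 itself at 50.9 to 55.6, and the second MRPL30 identifier at 67.9 to 81.3. In Lat-M2 against PA that second identifier passed limma's test (-0.19, adjusted p = 0.0207), while the one kept did not (adjusted p = 0.0866). MRPS17 was called lower in Lat-M1 by the identifier kept (-0.17, adjusted p = 0.0101) but not by its second (-0.15, adjusted p = 0.0885). On deposited TPM neither call stood (adjusted p = 0.71 and 0.995).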
